A study of Mus musculus with 56 samples.

Results

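The CD antigens are the leukocyte surface molecules that carry a cluster of differentiation number, such as CD3, CD4 and CD14. On the MUSV29K microarray, which carries mouse cDNA clones on nylon, 71 clones of 52 gene symbols with such a name are described here, out of 7625 named clones of 5883 symbols. They were taken by their symbol, Cd followed by a digit. The adhesion molecules Cd34 and Cd44 and the adaptor proteins Cd2ap and Cd2bp2 were left out. The rule itself uses no measured value, but the members and gene lists were chosen with earlier results of these data known. By the cells that they are best known for, 18 clones of 12 symbols were T cell antigens, 7 clones of 5 symbols were B cell antigens and 12 clones of 9 symbols were myeloid antigens. The other 34 clones of 26 symbols are antigens shared by several cell types or found outside leukocytes.

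CD molecules act as receptors, co-receptors, adhesion proteins and signalling partners at the cell surface, and antibodies to them are the usual means of telling leukocyte types apart. The lung holds a large pool of leukocytes, with macrophages in the airspaces and lymphocytes, monocytes and neutrophils in the vessels and the interstitium. During acute lung injury neutrophils and monocytes enter the tissue from the blood, while lymphocytes can leave the blood for lymphoid organs. A whole lung measures all of these cells together, so that fewer cells of a type and less RNA per cell cannot be told apart.

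Wild-type female C57Bl/6J mice aged 7 weeks were anesthetized with xylazine and ketamine and received 20 µl of oleic acid (OA, 1.2 µl per g body weight) or 20 µl of physiological serum through the tail vein. The lungs of 27 OA mice were collected after 1 hour (4 mice), 1.5 hours (6), 3 hours (7), 4 hours (4), 18 hours (3) and 24 hours (3), and those of 8 serum mice at each of these times except 4 hours. The study calls 1 to 1.5 hours early, 3 to 4 hours intermediate and 18 to 24 hours late, and the comparisons ask how the antigens follow these stages. The mouse codes also carry a number after the letter L, here called the lot because the labels do not explain it, and early mice came from lots 2 and 3 (6 and 4 mice), intermediate mice from lots 1, 2 and 3 (3, 3 and 5) and late mice from lot 1 alone (6). Early and late mice therefore share no lot, and stage was compared within lots. Of the OA mice, 23 were hybridized on 2 microarrays, whose log2 signals correlated with r of 0.904 to 0.963 across clones (median 0.939, against 0.93 between microarrays of different mice), and the mean of the microarrays of a mouse was its value. Mouse P7L3 stands at 3 hours by the title of its microarray, whose other label gives another time.

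Most of the lymphoid and myeloid antigens were dim. The spots listed as empty had a median log2 signal of 6.15 and a 95th percentile of 8.94. Above that percentile lay 26 of the 71 CD clones (36.6%), against 36.9% of all named clones. These were 22 of the 34 clones of the other antigens, 3 of the 18 T cell clones, 1 of the 7 B cell clones and none of the 12 myeloid clones. All 4 clones of Cd74, the invariant chain of MHC class II, were above it, with means between 11.84 and 13.24. The T cell clones above the percentile were Cd6, Cd96 and Cd160, and the B cell clone was Cd37, a tetraspanin. The defining T cell receptor chains and co-receptors Cd3d, Cd3e, Cd3g, Cd4 and Cd8a all stayed below it, and 3 CD clones had means under the median of the empty spots. Sftpd, a surfactant protein made by the lung epithelium, had a mean of 13.52.

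**Figure D1:**
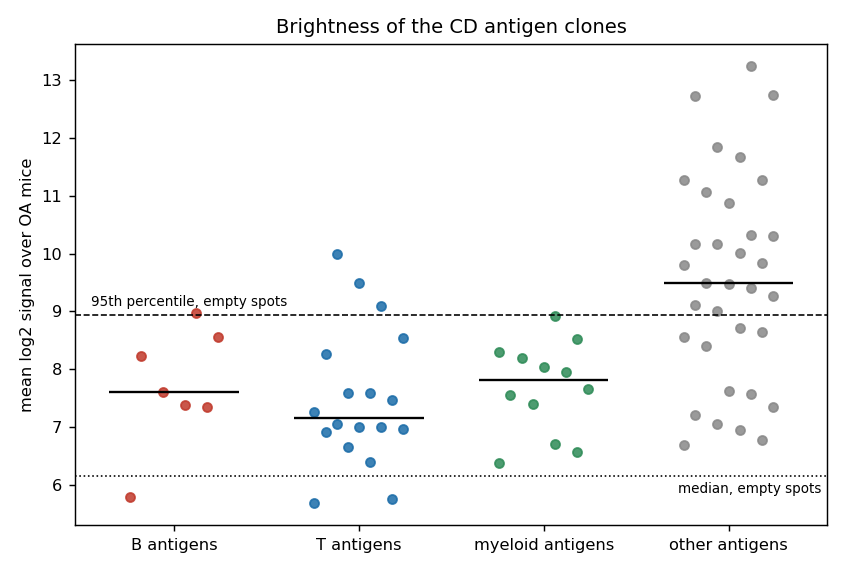
Mean log2 signal over the OA mice of each of the 71 CD antigen clones (vertical axis), by antigen class. Horizontal bars are class medians, the dashed line is the 95th percentile of the empty spots (8.94) and the dotted line their median (6.15). A single B cell clone and 3 T cell clones reach the dashed line, against 22 of 34 clones of the other antigens.

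Over the 6 time points 1 CD clone was called, that of Cd97, now named Adgre5. This is an adhesion G protein-coupled receptor of granulocytes, monocytes and activated lymphocytes. Called clones made up 2.01% of all clones tested (153 of 7625) and 1.41% of the CD clones (1 of 71), by limma's moderated F test with Benjamini-Hochberg adjustment at 5%. At an unadjusted p under 0.05 the shares were 15.8% of all clones and 21.1% of the CD clones (15 of 71).

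Cd97 was lowest at 3 to 4 hours and highest at 24 hours. Its signals were 11.64, 11.885, 11.41 and 11.615 at 1 hour, and 11.67 to 12.255 (median 11.81) in the 6 mice at 1.5 hours. At 3 hours the 7 mice lay between 11.185 and 11.61 (median 11.39), and at 4 hours they had 11.655, 11.455, 11.115 and 11.385. The late mice had 11.93, 12.02 and 11.57 at 18 hours and 12.21, 11.955 and 12.205 at 24 hours. All mice at 1.5 hours and at 24 hours were above all mice at 3 and 4 hours, whereas those at 1 and at 18 hours overlapped with them. The adjusted p over the time points was 0.0104, and it stayed at or under 0.0428 when any single mouse was left out. With lot as a factor in the fit the call was lost (adjusted p = 0.0553), and lot and time are partly confounded in this design. The serum mice, measured from scanner values, had 11.691, 11.873 and 11.886 at 1 to 1.5 hours. They had 11.314 and 12.456 at 3 hours, and 12.472, 12.266 and 12.219 at 18 to 24 hours. The course over time in serum mice was not tested. After subtraction of the serum columns both steps of Cd97 changed sign.

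**Figure D2:**
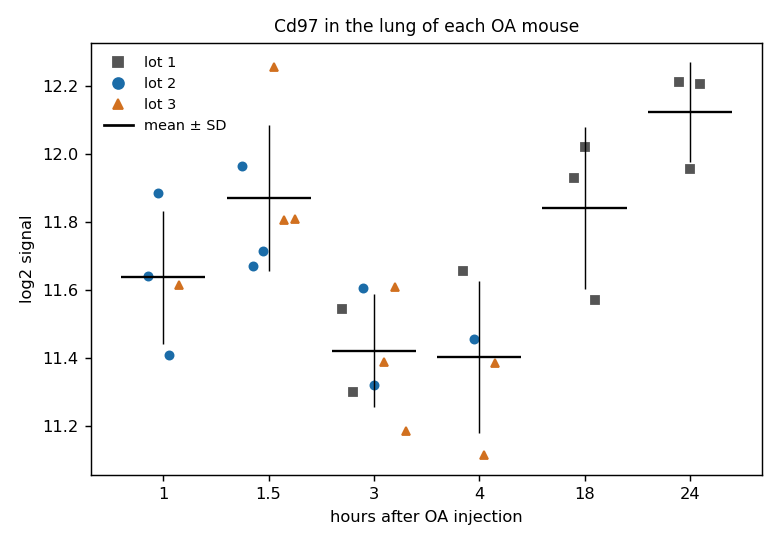
Log2 signal of the Cd97 clone (vertical axis) in each OA mouse by hours after injection, with the lot as the marker and bars for the mean and SD. The 11 intermediate mice lie between 11.115 and 11.655, below all mice at 1.5 and at 24 hours.

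Within lots 2 and 3, from early to intermediate, all 7 B cell clones had differences below 0, but none of the 71 CD clones passed the test. Of the 71, 50 were below 0, against 51.4% of all clones. The comparison fitted 10 early and 8 intermediate mice with lot as a factor, and it called 0.249% of all clones (19 of 7625), 12 higher and 7 lower. The median difference of the B cell clones was -0.27 on the log2 scale, against -0.01 for all clones, -0.01 for the T cell clones, 0.02 for the myeloid clones and -0.10 for the other antigens. At an unadjusted p under 0.05, 9 CD clones were lower (12.7%, against 5.31% of all clones) and 2 were higher (2.82%, against 5.3%). Of the lower ones 3 were B cell clones, 3 were T cell clones and 3 belonged to the other antigens.

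The B cell clones below that unadjusted p were the brighter clone of Cd79b, Cd37 and Cd22. Cd37 was closest to the test, with a difference of -0.38 (SE 0.10, 95% interval -0.58 to -0.17, limma adjusted p = 0.128). In lot 2 it lay between 8.875 and 9.415 (median 9.22) in the 6 early mice and was 8.855, 8.925 and 8.685 in the intermediate mice. In lot 3 it was 9.34, 9.28, 9.005 and 9.23 in the early mice and between 8.565 and 9.14 (median 8.79) in the 5 intermediate mice. The groups overlapped in each lot, through 1 intermediate mouse in lot 3 and through the lowest early mice in lot 2, and the differences were -0.34 and -0.41 in lots 2 and 3. Over the 6 time points Cd37 had an adjusted p of 0.0946, which ran from 0.0495 (without mouse P4L2) to 0.169 with 1 mouse left out at a time.

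Cd79b, the signalling chain that carries the B cell receptor signal into the cell, had 2 clones with differences of -0.52 (SE 0.18) and -0.45 (SE 0.22). In lot 3 its brighter clone lay between 8.63 and 9.335 in the early mice and between 7.93 and 8.765 in the intermediate mice. Lot 2 overlapped more widely, with 8.37 to 9.425 early and 7.875, 8.45 and 9.08 intermediate, and the difference of this clone was -0.75 in lot 3 and -0.27 in lot 2. Over the 6 time points the adjusted p of this clone was 0.148. With 1 mouse left out at a time it ran from 0.0244 (without P16L2, the highest intermediate mouse) to 0.236. Cd22, an inhibitory lectin that restrains the B cell receptor, gave -0.27 (SE 0.09, adjusted p = 0.262). In lot 2 it lay between 7.315 and 7.655 early and was 7.20, 7.215 and 7.315 in the intermediate mice, whose highest value equalled the lowest early one, and in lot 3 the ranges were 7.22 to 7.82 and 7.12 to 7.46. The brighter clone of Cd72, another inhibitory co-receptor, gave -0.18 (95% interval -0.40 to 0.03). Its dimmer clone, with a mean of 5.79 below the median of the empty spots, gave -0.03 with an interval from -0.94 to 0.88. Cd40, the receptor through which T cells license B cells, gave -0.01 (interval -0.31 to 0.28), with -0.26 in lot 2 and 0.21 in lot 3.

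**Figure D3:**
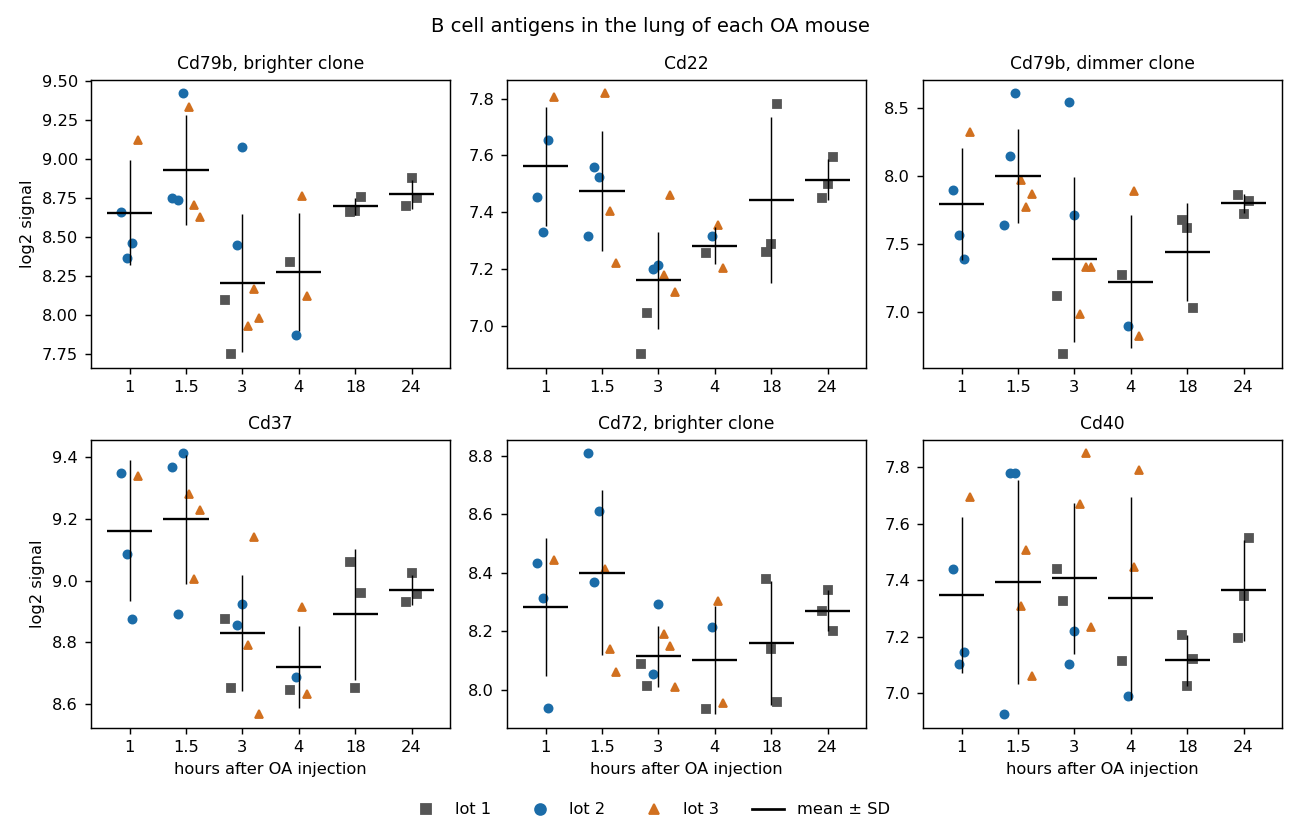
Log2 signal of 6 B cell antigen clones (vertical axes, each panel with its own scale) in each OA mouse by hours after injection, with the lot as the marker and bars for the mean and SD. The means of 5 clones are lower at 3 hours than at 1.5 hours, that of Cd40 is not, and single mice of lot 2 or 3 at 3 or 4 hours reach the early range. The dimmer Cd72 clone is not shown, and its mean was higher at 3 hours (5.966) than at 1.5 hours (5.692).

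The T cell antigens did not move together. Of their 18 clones 10 were below 0, and at an unadjusted p under 0.05 there were 3 lower and 1 higher. The brighter clone of Cd3g, a chain of the T cell receptor complex, gave -0.38 (SE 0.13, adjusted p = 0.272), with -0.67 in lot 2 and -0.12 in lot 3, and its other clone gave -0.15. In lot 2 its 6 early mice lay between 8.685 and 9.175 and its 3 intermediate mice between 8.15 and 8.485, with no overlap, whereas in lot 3 the ranges were 8.325 to 9.05 and 8.265 to 8.79. Over the 6 time points this clone had an adjusted p of 0.0532, which ran from 0.00417 to 0.124 with 1 mouse left out at a time.

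The remaining T cell antigens were close to 0 or split. Cd3d, Cd3e and Cd247, further chains of the receptor complex, gave -0.05, 0.03 and 0.07 for their brightest clones, and the co-receptors Cd4 and Cd8a gave 0.00 and -0.28 (adjusted p = 0.44 for Cd8a). The adhesion molecule Cd2, the receptor modulator Cd5 and Cd7 gave 0.01, 0.04 and -0.02. The 2 clones of Cd5 differed, since its dimmer clone gave -0.18. Cd6, a scavenger receptor family member that binds Alcam, gave 0.30 (SE 0.12, adjusted p = 0.364) and Cd96, a nectin receptor of T and NK cells, gave 0.37 (SE 0.18, adjusted p = 0.469). In lot 2 the Cd96 clone ranged from 8.545 to 9.99 in the early mice and from 9.43 to 9.715 in the intermediate mice, so that the higher mean came with full overlap. Cd160, an NK and T cell receptor, gave -0.18 with an interval from -0.97 to 0.61.

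Among the myeloid antigens 6 clones were below 0 and 6 above. Cd14, the co-receptor for lipopolysaccharide, had the largest difference of the 12, 0.38 (SE 0.14, adjusted p = 0.343), and 0.23 without mouse P5L3. Its early mice of lot 2 lay between 6.335 and 6.935 and its intermediate mice had 6.82 to 6.98, with overlap. In lot 3 the early mice lay between 5.44 and 6.82, the low end being mouse P5L3, and the intermediate mice between 6.67 and 6.935.

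The macrophage antigens Cd163, the haemoglobin scavenger receptor, and Cd68, a lysosomal glycoprotein, gave 0.14 and -0.09. The secreted macrophage protein Cd5l gave 0.13, and Cd33, a sialic acid lectin, gave 0.16 and 0.04 for its 2 clones. The costimulatory molecules of antigen-presenting cells Cd80, Cd83 and Cd86 gave 0.00, -0.11 and 0.11 (brightest clone), and Cd300d gave -0.16. The myeloid list had a median of -0.11 in lot 2 and of 0.10 in lot 3, whereas the B cell list had -0.23 and -0.30, with 6 of 7 clones below 0 in each lot.

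Of the 34 other clones 27 were below 0. Their largest differences were those of Cd97 (-0.40, SE 0.10, adjusted p = 0.114), Cd63, a tetraspanin of granules and lysosomes (-0.40, SE 0.21, adjusted p = 0.52, and 0.0248 without mouse P7L2), and the brighter clone of Cd52, a small glycoprotein of lymphocytes and monocytes (-0.40, SE 0.14, adjusted p = 0.293, and 0.0359 without mouse P4L3). Of the 18 fits with 1 mouse left out, these 2 were the only ones that called a CD clone. Cd69, an early activation antigen, gave -0.29 and Cd48, a ligand of the NK receptor Cd244, gave -0.24 and -0.17 for its 2 clones. Cd244 itself gave -0.21 (SE 0.12, adjusted p = 0.597), with -0.55 in lot 2 and 0.10 in lot 3. The 4 clones of Cd74 lay between -0.12 and -0.03. Cd177, a glycoprotein of neutrophils, gave 0.15 (SE 0.08) and Cd200, which restrains myeloid cells, gave 0.22 (SE 0.17). The rest of this group was made up of Cd9, Cd24a, Cd38, Cd53, Cd55, Cd59a, Cd81, Cd82, Cd93, Cd151, Cd164, Cd164l2, Cd200r3, Cd274, Cd276, Cd300lg and Cd320, none of which passed the test.

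**Figure D4:**
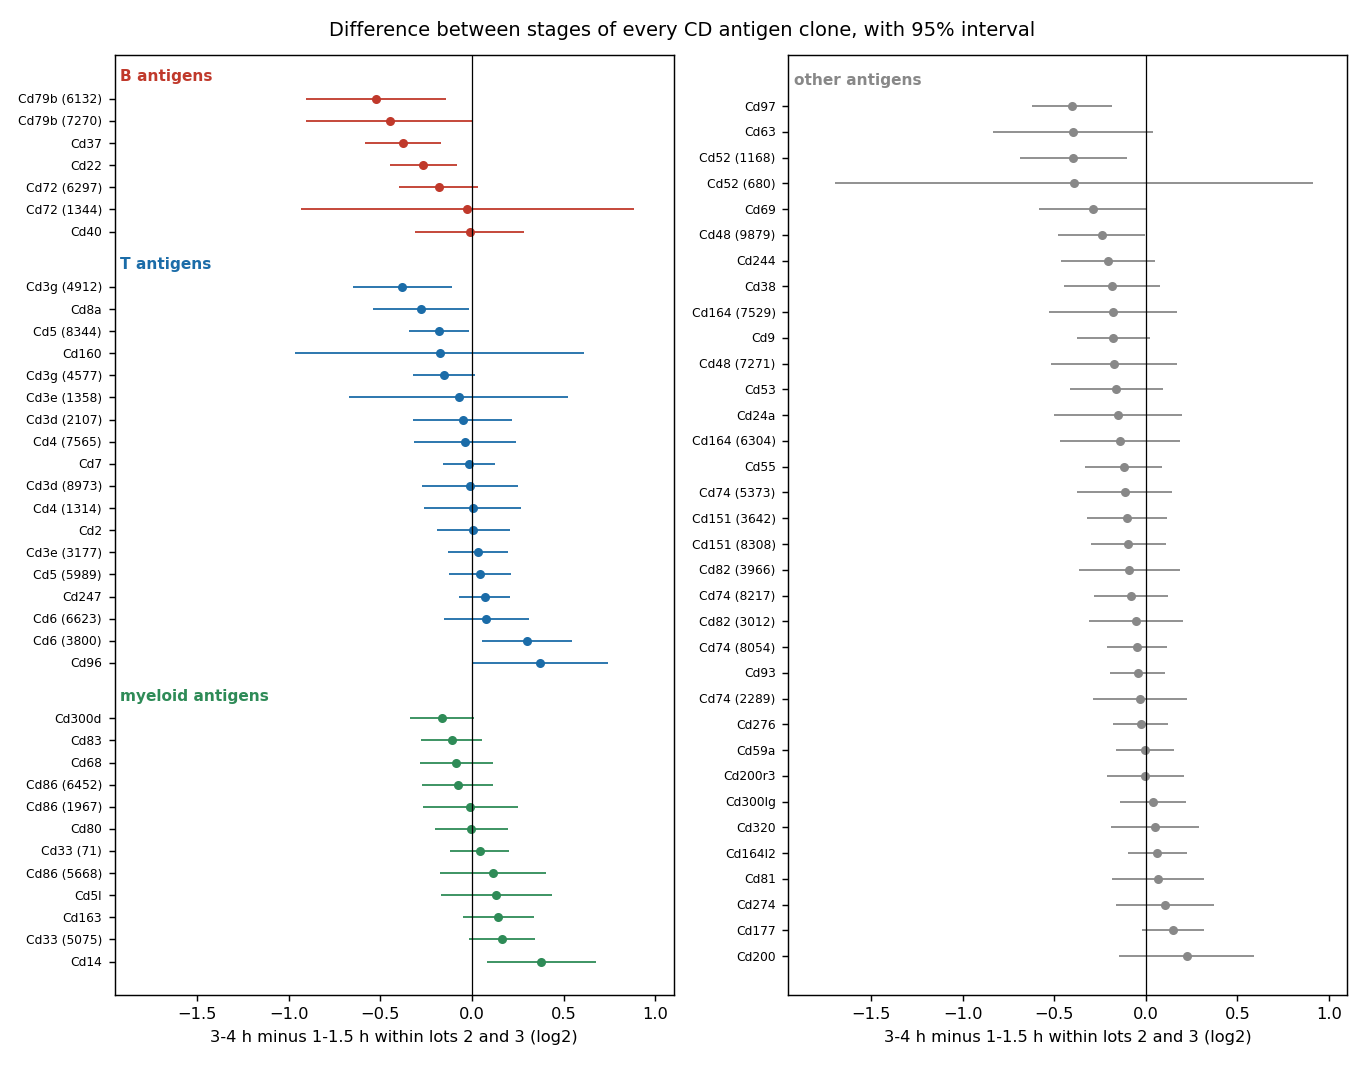
Difference in log2 signal between 3 to 4 hours and 1 to 1.5 hours within lots 2 and 3 (horizontal axis) for each of the 71 CD clones, with its 95% interval, by antigen class. Numbers in brackets are spot numbers that tell apart clones of a gene. The 7 B cell clones lie below 0, while T cell and myeloid clones lie on both sides.

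From intermediate to late, compared within lot 1 in 3 and 6 mice, 1 CD clone was called, the brighter clone of Cd79b, as higher. This clone was 8.1, 7.75 and 8.34 in the intermediate mice and between 8.665 and 8.88 (median 8.725) in the late mice, with no overlap. All of these values lay under the 95th percentile of the empty spots (8.94). The difference was 0.67 (SE 0.12, 95% interval 0.40 to 0.94, limma adjusted p = 0.0381). It was the single CD clone called (1.41%), where 0.603% of all clones were called, 9 higher and 37 lower. The call was lost when any of 7 of the 9 mice was left out (all but P12L1 and P4L1), with adjusted p of 0.0612 to 0.147 and differences of 0.52 to 0.69.

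Of the 7 B cell clones 6 had differences above 0, all but Cd40 with -0.05, as had 46 of the 71 CD clones and 52% of all clones. At an unadjusted p under 0.05, 8 CD clones were higher (11.3%, against 5.53% of all clones) and none was lower (against 5.27%), and 3 of the 8 were B cell clones. The median of the B cell clones was 0.21, against 0.01 for all clones, 0.06 for the T cell clones, 0.05 for the myeloid clones and 0.03 for the other antigens. The dimmer Cd79b clone was 7.12, 6.69 and 7.275 in the intermediate mice and 7.03 to 7.86 in the late mice, where 1 late mouse, P12L1, lay among the intermediate ones (difference 0.59, SE 0.19, adjusted p = 0.25). With 1 mouse left out at a time its adjusted p ran from 0.0414 (without P12L1) to 0.594. Cd22 did not overlap, at 6.9 to 7.255 and 7.26 to 7.78, but its groups all but met (difference 0.41, SE 0.13, adjusted p = 0.255). Its mean of 7.38 lay under the 95th percentile of the empty spots. Cd37 overlapped, at 8.645 to 8.875 and 8.65 to 9.06 (0.21, SE 0.11). Outside the B cells, Cd97 gave 0.48 (SE 0.15, adjusted p = 0.227) and the brighter Cd52 clone 0.43 (SE 0.13, adjusted p = 0.243), and Cd55, which protects cells from complement, gave 0.41 (SE 0.13, adjusted p = 0.25). The lowest myeloid clone was Cd5l, with a difference of -0.38 (SE 0.19, adjusted p = 0.513).

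Both steps rest on different mice, of lots 2 and 3 for the first and of lot 1 for the second. Of the 7 B cell clones 6 (85.7%) were below 0 in the first and above 0 in the second, where 30.3% of all clones were so. Among the CD clones as a whole the share was 50.7% (36 of 71), with 52.9% of the other antigens, 44.4% of the T cell clones and 33.3% of the myeloid clones. The clones of a gene share its RNA, and 4 of the 7 B cell clones belong to 2 genes. No test was made of this count.

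**Figure D5:**
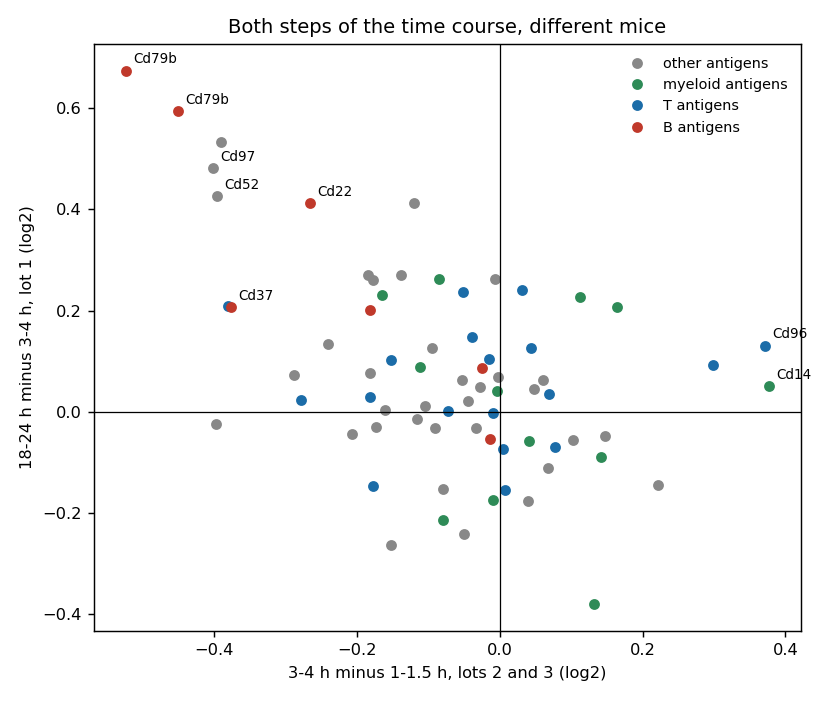
Difference from early to intermediate in lots 2 and 3 (horizontal axis, log2) against that from intermediate to late in lot 1 (vertical axis, log2) for the 71 CD clones, coloured by antigen class. The upper left field holds 36 of the 71 clones, 6 of the 7 B cell clones, 18 of the other antigens, 8 T cell clones and 4 myeloid clones.

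B cell genes that go by other names were set beside them from a list of 28 symbols, 14 of which were on the microarray with 24 clones. From early to intermediate 19 of the 24 clones were below 0, with a median of -0.14, and from intermediate to late 19 were above 0, with a median of 0.19. The call in each step was the same clone of Ms4a1, the B cell antigen CD20, with a mean of 7.66 under the 95th percentile of the empty spots. It lay between 7.875 and 8.71 in the early mice of lot 2 and at 7.01, 7.24 and 7.26 in the intermediate mice of that lot, with no overlap, and it differed by -0.95 between these stages over lots 2 and 3 (limma adjusted p = 0.0297). In lot 3 its ranges overlapped, at 7.36 to 8.215 and 6.44 to 7.86. From 6.73 to 7.06 in the intermediate mice of lot 1 it went to 7.65 to 8.17 in the late mice, a difference of 0.91 (adjusted p = 0.0127). The 4 clones of Ms4a1 did not agree among themselves, since the others gave -0.45 (adjusted p = 0.0771), -0.12 and 0.22 in the first step and 0.27, -0.07 and -0.13 in the second. The brightest of the 4 was the clone with 0.22 and -0.13. Bank1, a B cell adaptor, gave -0.46 (adjusted p = 0.0826) and 0.27, and the light chain Igl-V1 gave -0.55 (adjusted p = 0.0947) and 0.54 (adjusted p = 0.0939). Other B cell genes did not follow this course. Fcrla, a B cell protein related to Fc receptors and bright at a mean of 10.12, gave 0.30 and -0.31. The kinases Lyn, by its brighter clone, and Syk gave 0.25 and 0.07 in the first step and 0.02 and -0.02 in the second. Of the 4 clones of Igh-6, the IgM heavy chain, 3 gave -0.39, -1.04 and -0.21 and then 0.56, 0.77 and 0.28, while the dimmest gave 0.30 and 0.15.

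T cell genes under other symbols (22 clones) had medians of -0.04 and 0.00 in these steps, and myeloid and neutrophil genes (35 clones) 0.02 and -0.04, with no call in either list. The largest differences among the myeloid genes were those of S100a8 and S100a9, abundant calcium-binding proteins of neutrophils, in the step from intermediate to late, with -1.58 (adjusted p = 0.0668) and -1.57 (adjusted p = 0.0924). In lot 1 S100a8 lay between 11.795 and 12.53 in the 3 intermediate mice and between 9.635 and 11.32 in the 6 late mice, with no overlap, and S100a9 was likewise apart. These differences are opposite in sign to those of the B cell antigens in the same mice. The 3 clones of lung epithelium gave 0.06 and -0.18 and the 9 endothelial clones -0.13 and -0.10, and the largest endothelial difference was that of Cldn5, a tight junction protein, from intermediate to late (-0.85, adjusted p = 0.0576). Of the red cell clones 12 were haemoglobin chains with means of 13.9 to 14.41, where the top value of every microarray was 14.41. So close to the top they can give little measure of the blood in a lung. The other 3, Alas2 of haem synthesis and 2 clones of the red cell anion exchanger Slc4a1, gave 0.12, 0.15 and 0.05 in the first step and -0.22, -0.04 and 0.05 in the second. The part of neutrophils, endothelium and blood in the B cell differences was not tested.

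The difference between early and intermediate was itself compared between lots 3 and 2. No CD clone passed this test, which called 0.0918% of all clones (7 of 7625). At an unadjusted p under 0.05 there were 10 CD clones (14.1%), against 13.8% of all clones. Among them were Cd8a, Cd5l and Cd244 and, of the Cd3g clones, the brighter (unadjusted p = 0.0261), while neither clone of Cd79b was (p = 0.192 and 0.211).

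Against physiological serum, measured from the scanner values of all microarrays, 42 of the 71 CD clones passed, 24 higher and 18 lower in OA (33.8% and 25.4%). On the whole microarray 61.6% of clones passed, 34.3% higher and 27.3% lower, so that the CD clones (59.2%) were near the background. There were 1 or 2 serum mice at each of these times, and no lot was assigned to them, so that the fit held no lot term. Before normalization the median log2 signal ran from 6.75 to 9.36 on OA microarrays and from 5.73 to 8.39 on serum microarrays. The part of lot and of signal level in the differences from serum was not tested. Of the B cell clones 4 were lower and 1 was higher. The brighter Cd79b clone lay between 7.67 and 9.3 (median 8.59) in the 23 OA mice of the 5 times with serum mice, and between 8.89 and 10.34 (median 9.67) in the 8 serum mice, with overlap. Its difference, averaged over those times, was -1.10 (SE 0.16, limma adjusted p = 7.91e-07). The OA mean of this clone, 8.53, lay under the level of 8.84 that 95% of empty spots stayed below in OA mice, and the serum mean, 9.66, above it. The dimmer clone was also lower in OA (adjusted p = 0.00503). Cd37 gave -0.26 (SE 0.10, adjusted p = 0.0236), with OA mice from 8.49 to 9.29 and serum mice from 8.39 to 9.43. Its adjusted p rose to between 0.0509 and 0.101 without any of 3 serum mice, of 1, 3 and 18 hours, and without single serum mice of 3 hours its difference was -0.16 or -0.36.

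Of the 42 clones 24 were dim in both groups, with neither mean above that level of the empty spots (8.92 in serum mice). Of these 24, 15 were higher and 9 lower in OA, and the size of their difference is not given here. Among these were Cd40, the higher B cell clone, at 6.8 to 7.77 in OA mice and 5.65 to 6.57 in serum mice (adjusted p = 5.62e-09), Cd247, at 6.63 to 7.09 and 5.5 to 6.05, and Cd163, at 7.9 to 8.59 and 7.07 to 7.57. Their groups did not overlap, and the share of all clones whose groups lie apart in this comparison is not given here. Cd96 had a mean above that level in OA mice (8.46 to 9.88) and below it in serum mice (7.48 to 7.89). Cd97 was lower in OA (difference -0.31, SE 0.11, adjusted p = 0.0194), with OA mice from 11.09 to 12.25 and serum mice from 11.31 to 12.47. With the fitted spot signal in place of the image signal 13 of the 71 CD clones passed, Cd37 and the brighter Cd72 clone changed sign, and Cd40 did not pass (adjusted p = 0.0614).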

How the data were processed

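Lung RNA of OA and serum mice was hybridized with 33P label on MUSV29K membranes. For each microarray the authors deposited spot intensity, either measured on the image or after fitting the spot, at constant or calculated diameter. The authors also deposited a table of log2 values, quantile-normalized by them, with 51 OA columns and 5 serum columns. Each OA column followed the log2 image signal of its microarray (r of at least 0.997), and OA column medians were 8.21.

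OA columns were joined to gene symbols by spot number and averaged per mouse, without serum subtraction. Control, empty and unnamed spots were left out. The OA microarray at 1.5 hours of unresolved mouse was also left out. Limma 3.58.1 in R 4.3.3 (lmFit, eBayes) was used on 7625 clones with Benjamini-Hochberg adjustment at 5%. The contrasts were the 6 time points, intermediate minus early with lot as a factor, late minus intermediate in lot 1, and the lot interaction. For OA against serum, image signals at constant diameter (floor of 1) were quantile-normalized over the microarrays. The 2 serum microarrays at 1.5 hours are of 1 mouse by the study's design. The precision is limited by the number of mice and by the dimness of the clones. All fits were tested on simulated data.

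Named were the called clones of the first 3 contrasts and the brightest clone of each listed T cell, B cell and myeloid antigen. Other clones were named after their values were seen. The share of all clones whose groups do not overlap is not given here, so that each statement on overlap describes its own clone only. 1 further gene whose symbol matches the rule is not reported here. The members, gene lists and tests were chosen with earlier results of these data known. Of the 52 gene symbols, as spelled in the array files, 49 are current in RefSeq and 3 are older names. Alternatives were multi-class SAM, lot as a factor, serum subtraction, median centring, single microarrays with mouse as a random block, omission of dim clones or of the microarray with conflicting labels, addition of the microarray of unresolved mouse, the fitted signal, and omission of each mouse in turn.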

Additional observations from a re-analysis of the deposited data

Results flagged for a closer look

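Of 116 groups of 4 to 7 mice at 1 time point, over 29 clones, 7 held a mouse far from the others, and chance alone marks about 1 group in 20. Cd14 at 1.5 hours had a low mouse, P5L3, at 5.44 where the next was at 6.405. Cd163 had a high mouse at 1.5 hours, again P5L3 (8.66, next 8.275), and at 4 hours, P12L3 (8.80, next 8.355). Mouse P3L1 was low for Cd33 at 3 hours (8.60, next 8.89). At 1 hour mouse P4L2 was low for Cd5 (6.685, next 7.085) and mouse P2L3 was high for Cd6 (10.08, next 9.69). Mouse P9L3 was high for Cd7 at 3 hours (7.785, next 7.63). None of these clones was called over the time points.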

How the results depend on the processing

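Calls of CD clones over the 6 time points numbered 1 (Cd97), and 1 by multi-class SAM and without dim clones, 0 with lot as a factor, 2 with the microarray of unresolved mouse (Cd97 and Cd3g), 8 with single microarrays and mouse as a random block, and 64 after subtraction of the serum columns. From early to intermediate they numbered 0, and 3 with single microarrays (Cd97, Cd22 and Cd37) and 34 after serum subtraction. From intermediate to late they numbered 1, and 0 without dim clones, 2 with single microarrays (Cd79b and Cd52) and 28 after serum subtraction. Against serum 42 became 13 with the fitted signal or without dim clones. With each mouse left out in turn the first 3 counts ran from 1 to 4 (4 without P4L3, with Cd3g, Cd96 and Cd52 added), from 0 to 1 (Cd63 without P7L2, Cd52 without P4L3) and from 0 to 2 (both Cd79b clones without P12L1). Multi-class SAM called 1.74% of all clones (133). For the other alternatives the share of all clones is not given here, so their counts cannot be set against the whole microarray.

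Serum subtraction moved the early to intermediate medians to -0.43 for myeloid and -0.01 for other antigens, and the intermediate to late medians to 0.46 for T cell, 0.54 for B cell and 0.24 for myeloid antigens. It reversed the first step of the dimmer Cd72 clone (0.41), Cd97 (0.39), Cd3g (0.05), Cd96 (-0.18), Cd300d (0.18) and Cd14 (-0.67). It reversed the second step of Cd40 (0.64), Cd97 (-1.36), Cd96 (-0.18) and Cd300d (-0.36). The cause was not tested. The subtracted serum columns hold 1 value for each time point that had serum mice, which adds no spread between mice. There were no serum mice at 4 hours, so the OA mice at 4 hours had no serum column of their own time. The call counts and steps after serum subtraction that include these mice carry this limit.

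The T cell median of the first step became 0.30 without dim clones. Only the brighter Cd6 clone, Cd96 and Cd160 then remained, and 0.30 is the value of Cd6. The myeloid median of the first step was -0.11 in lot 2 alone. The first step of the dimmer Cd72 clone was 0.06 without the microarray of conflicting labels, 0.08 without the lot factor and 0.20 in lot 2 alone, and that of Cd40 was 0.04 without the lot factor and 0.21 in lot 3 alone. Cd14 had a second step of -0.01 with median centring. Against serum, Cd37 and the brighter Cd72 clone became 0.25 and 0.29 with the fitted signal. With 1 mouse left out, the first step of the dimmer Cd72 clone ran from -0.37 to 0.19 and that of Cd40 from -0.09 to 0.04, and the second steps ran from -0.25 to 0.24 for Cd14, from -0.14 to 0.02 for Cd40 and from -0.07 to 0.21 for the dimmer Cd72 clone. The myeloid median of the second step ran from 0.01 to 0.15. No paired analysis was possible because each mouse was killed at 1 time point and the numbers in the codes name mice.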

Other observations

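CD antigens that the microarray lists under other symbols, 52 clones of 38 genes, had a median difference of -0.09 from early to intermediate, and 35 of the clones were below 0. From intermediate to late the median was -0.01 and 26 clones were above 0. Over the 6 time points 4 of them (7.69%, against 2.01% of all clones) were called, Fas, the death receptor CD95 (adjusted p = 0.00699), Ptprc, the leukocyte common antigen CD45 (0.0282), Slc3a2, the amino acid transporter subunit CD98 (0.0351), and a clone of Ms4a1 (0.00396). That test had no lot term, lot and time are partly confounded, and these calls with lot as a factor are not given here. Within lots Fas, Ptprc and Slc3a2 did not pass in either step. Ptprc gave -0.45 from early to intermediate and 0.24 from intermediate to late (limma adjusted p = 0.195 and 0.745). Fas gave 0.32 and -0.58 (0.486 and 0.235), and the called Slc3a2 clone gave 0.39 and -0.45 (0.171 and 0.178). Fas, Ptprc and Slc3a2 were named after their values were seen.

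The OA microarray at 1.5 hours whose mouse is unresolved had a median of 8.21. Its signals lay inside the range of the 6 mice at 1.5 hours for 58 of the 71 CD clones.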
